A study of Bos taurus with 8 samples.

Results

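The bovine gene table held 35 genes of the cell-to-matrix adhesion system, of 18871 rows that named a gene. They were taken by gene name, with no threshold on their levels, and comprised 17 integrin alpha chains, 6 integrin beta chains, 10 laminin chains and the 2 nidogens, *NID1* and *NID2*. All 35 reached the minimum of 20 counts over the clones and were among the 18339 genes tested. Integrins are receptors made of an alpha and a beta chain that span the cell membrane and tie the cytoskeleton to proteins outside the cell, and the alpha chain largely sets which protein is bound. Laminins are secreted trimers of an alpha, a beta and a gamma chain that form the sheet of the basement membrane, and nidogens link that sheet to type IV collagen. Muscle fibres, vessels and mature adipocytes are each wrapped in a basement membrane, whereas fibroblast-like stromal cells mostly touch fibrillar collagen and fibronectin.

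RNA-seq had been run on 8 preadipocyte clones from adult male Angus-cross steers, 4 from intramuscular fat (IMF1 to IMF4) and 4 from subcutaneous fat (SF1 to SF4). Each clone was grown by limiting dilution from a stromal vascular fraction, the mixed non-fat cells released when the tissue is digested. Within a depot each clone came from a different fraction, and clones had been picked for fast growth, lipid accumulation and shape. The methods place collection in growth medium before confluence, while the series' design text describes adipogenic induction before sequencing. No agent or genetic change distinguished the groups, which differed in depot. The labels and the methods give different numbers of steers, both smaller than the number of clones, so some steers supplied fractions of both depots. Which IMF and SF clones shared a steer was not given in the sources used here, and the clones were compared unpaired. Each library is therefore the progeny of selected cells rather than the tissue, and the p-values describe the spread between these clones. The comparison asks how preadipocytes of the 2 depots differ.

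Total counts ran from 19654917 to 29308882 per clone. Levels are given as CPM, a gene's counts relative to all counts of the clone, on libraries scaled by the trimmed mean of M-values, and levels of different genes were compared only as RPKM, which divides CPM by the gene length in the deposited table. A gene passed when the edgeR quasi-likelihood test gave a Benjamini-Hochberg adjusted p under 0.05 and the log2 fold change of IMF over SF was at least 1 in size. In bulk libraries, fewer cells that carry a transcript and less of it per cell cannot be told apart.

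Markers of other cell types moved with the depot. All 12 skeletal muscle and myoblast markers passed as higher in IMF, with a summed level of 867 to 999 CPM in IMF clones and 2.55 to 25.7 CPM in SF clones. The myogenic regulators *MYOD1* and *MYOG*, with *CHRNA1* and *MYOM2*, had no counts in any SF clone. Of 16 endothelial markers, 14 passed as higher in IMF, at 419 to 466 CPM summed in IMF clones and 44.9 to 82.4 CPM in SF clones, and *KDR*, *EMCN*, *SELE* and *CD93* had no counts in any SF clone. Of 10 preadipocyte and stromal markers, 9 were above the floor of 3 counts in both depots, while *CD34* had 216 or more counts in each IMF clone and 2 or fewer in each SF clone. Of the 10, 1 passed as higher and 2 as lower in IMF, with summed levels of 21671 to 22641 CPM in IMF and 35727 to 40012 CPM in SF clones. The difference in *COL1A1* alone exceeded that in the sum, with means of 12371 CPM over IMF and 30088 CPM over SF clones, while the median log2 fold change of the list was 0.18. Smooth muscle and pericyte markers were mixed, 2 of 7 higher and 4 lower, at 2209 to 2475 CPM in IMF and 3246 to 11040 CPM in SF clones. Their part in the differences described below was not tested.

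Of the 35 adhesion genes, 13 (37.1%) passed, against 8.82% of all genes tested. Of these, 9 were higher in IMF (background 4.78%) and 4 were lower (background 4.04%). The genes higher in IMF were *ITGA2*, *ITGA6*, *ITGA7*, *ITGA8*, *ITGB4*, *ITGB8*, *LAMA1*, *LAMA2* and *LAMA5*, and those lower were *ITGA11*, *ITGAL*, *ITGB3* and *LAMA3*. By class, 6 of 17 integrin alpha chains, 3 of 6 integrin beta chains and 4 of 5 laminin alpha chains passed, and none of the 5 laminin beta and gamma chains nor the 2 nidogens did. *ITGA5*, *ITGB1*, *LAMB1* and *LAMC1* had an adjusted p under 0.05 with a change below the fold threshold, which brought the number at that p to 17, against 25.8% of all genes. The 4 IMF values and the 4 SF values did not overlap for 18 of the 35, 10 with IMF above (background 18.0%) and 8 with SF above (background 14.1%), where 32.1% of all genes did not overlap in either direction. The median log2 fold change of the 35 was -0.05, next to -0.03 over all genes, and the median size of the change, sign ignored, was 0.88, next to 0.38.

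**Figure D1:**
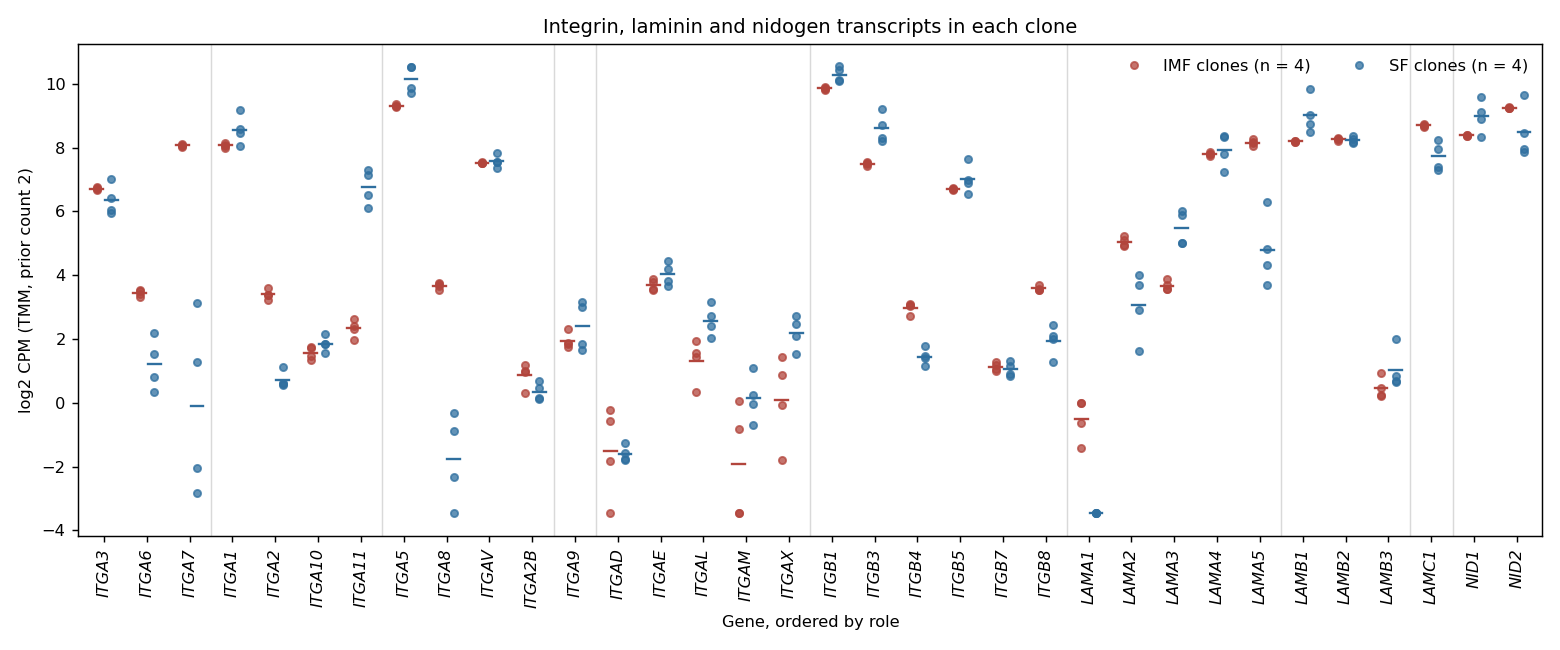
Level of each gene shown in each clone, on the log2 CPM scale (prior count 2), in red for the 4 IMF clones and blue for the 4 SF clones, with a bar at the group mean and vertical lines between functional classes. IMF points of abundant genes nearly coincide, ITGA7, ITGA8 and LAMA5 lie higher in IMF, and ITGA11 and LAMA3 lie higher in SF.

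The laminin-binding integrin alpha chains differed most in make-up between the depots. *ITGA7*, on chromosome 5 (57547850 to 57572012, ARS-UCD2.0), encodes the main laminin receptor alpha chain of skeletal muscle. Its levels were 270, 266, 279 and 258 CPM in IMF1 to IMF4 and 0.051, 0.150, 2.35 and 8.71 CPM in SF1 to SF4. The IMF clones were alike, while the SF clones rested on 1, 3, 58 and 158 counts and differed widely among themselves. The protein-coding gene *TMT1B*, which was not analysed here, overlaps *ITGA7* in the RefSeq list. The *ITGA7* mean was 95.3-fold higher in IMF, with a log2 fold change of 6.59 ± 1.10 (SE, n = 4 per group, edgeR adjusted p = 0.00328), and the log2 fold change was 8.20 without SF4. *ITGA6*, whose product pairs with the *ITGB1* or *ITGB4* chain, was at 9.84, 10.6, 11.3 and 11.4 CPM in IMF clones and 1.18, 1.65, 4.42 and 2.81 CPM in SF clones. No SF clone reached the lowest IMF clone, a 4.28-fold difference of means (log2 fold change 2.09 ± 0.37, edgeR adjusted p = 0.00403). *ITGA3*, the broadly expressed member of the class, was at 104, 101, 108 and 106 CPM in IMF clones and 62.3, 84.9, 65.3 and 130 CPM in SF clones. SF4 lay above and the other SF clones below the IMF values, and the gene did not pass (log2 fold change 0.29 ± 0.22, edgeR adjusted p = 0.373). Per length, *ITGA7* made up 72.8 to 74.2% of the laminin-binding alpha RPKM in IMF clones, whereas *ITGA3* made up 90.0 to 98.1% of it in SF clones.

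Among the collagen-binding alpha chains, *ITGA2* and *ITGA11* moved in opposite directions. *ITGA11*, on chromosome 10 (15128896 to 15262138), encodes a receptor chain for fibrillar collagen typical of fibroblasts. It was at 3.84, 5.20, 6.07 and 4.90 CPM in IMF clones and 68.3, 140, 158 and 91.0 CPM in SF clones. The groups were far apart, with the SF mean 22.8-fold higher (log2 fold change -4.51 ± 0.31, edgeR adjusted p = 3.42e-05). *ITGA2*, a collagen receptor chain well known from platelets and epithelia, was at 10.3, 10.4, 9.25 and 12.1 CPM in IMF clones and 1.39, 1.40, 2.07 and 1.43 CPM in SF clones. The groups did not overlap and the IMF mean was 6.69-fold higher (log2 fold change 2.73 ± 0.18, edgeR adjusted p = 3.13e-05). Neither of the 2 platelet markers in the table passed, and together they were at 2.01 to 2.90 CPM in IMF and 1.95 to 2.82 CPM in SF clones. Of them, *GP9* had 10, 2, 2 and 7 counts in IMF clones and 0, 0, 1 and 0 in SF clones, all IMF above all SF, and *GP1BA* overlapped between depots. Their part in the *ITGA2* level was not tested. *ITGA1*, which binds type IV collagen, was the most abundant of the class per length in every clone except SF2, where *ITGA11* led. Its levels were 255, 285, 267 and 273 CPM in IMF clones and 380, 262, 352 and 576 CPM in SF clones, with SF2 inside the IMF range and the other SF clones above it, and it did not pass (log2 fold change -0.54 ± 0.21, edgeR adjusted p = 0.0999). *ITGA11* accounted for 2.94 to 4.40% of the collagen-binding alpha RPKM in IMF clones and 25.4 to 52.8% in SF clones. *ITGA2* and *ITGA1* are neighbours on chromosome 20, 20.5 kb apart with no protein-coding gene listed between them. *MOCS2* overlaps *ITGA2* and *PELO* overlaps *ITGA1* in the RefSeq list, so reads there could be split by the counting.

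Of the chains that recognise the Arg-Gly-Asp motif, the fibronectin receptor chain gene *ITGA5* was the most abundant integrin alpha transcript per length in every clone. It was at 622, 635, 660 and 627 CPM in IMF clones and 1467, 829, 923 and 1478 CPM in SF clones. All SF clones lay above all IMF clones, in a higher pair (SF1, SF4) and a lower pair (SF2, SF3). The log2 fold change of -0.88 ± 0.20 stayed below the fold threshold (edgeR adjusted p = 0.0135), and it reached -1.02 and passed when either SF2 or SF3 was left out. Uncharacterised loci overlap *ITGA5* in the RefSeq list. *ITGA8*, on chromosome 13 (30053345 to 30242607), encodes the nephronectin receptor chain found on mesenchymal and smooth muscle cells. It was at 13.4, 11.6, 12.6 and 13.2 CPM in IMF clones, and its SF counts were 14, 0, 11 and 2, or at most 0.719 CPM. It was 39.9-fold higher in IMF by the means (log2 fold change 5.27 ± 0.62, edgeR adjusted p = 0.00062, log2 fold change 5.94 without SF1), although a count of 0 in a clone still allows 0.0981 to 0.165 CPM, depending on its depth. *ITGAV*, the vitronectin receptor chain gene, was at 182, 188, 184 and 181 CPM in IMF clones and 225, 188, 163 and 186 CPM in SF clones. The groups overlapped (log2 fold change -0.05 ± 0.10, edgeR adjusted p = 0.75).

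The integrin alpha genes of white blood cells were low in both depots, and *ITGAL*, the alpha chain gene of LFA-1, was the only one of 5 to pass. It was at 2.88, 2.62, 1.18 and 3.71 CPM in IMF clones and 8.78, 3.95, 5.24 and 6.50 CPM in SF clones. The groups did not overlap, and the log2 fold change was -1.23 ± 0.37 (edgeR adjusted p = 0.0393). It failed when any of IMF1, IMF2, IMF3, SF1, SF3 or SF4 was left out (edgeR adjusted p from 0.0576 to 0.0874). Leukocyte markers summed to 83.2 to 171 CPM in IMF and 153 to 261 CPM in SF clones, with 1 of 10 passing in each direction and none at 0 in every clone of a group. The pan-leukocyte gene *PTPRC* did not pass. It was at 19.2, 1.90, 7.12 and 10.5 CPM in IMF clones and 49.6, 27.0, 24.8 and 31.7 CPM in SF clones. Of the 10 markers, 3 had all IMF clones above all SF clones (background 18.0%) and 2 had the reverse (background 14.1%). Their part in the *ITGAL* level was not tested.

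Among the beta chains, *ITGB1*, the partner of most alpha chains above, was the most abundant per length in every clone. It was at 925, 963, 907 and 901 CPM in IMF clones and 1494, 1081, 1100 and 1367 CPM in SF clones. The groups did not overlap, but the change was small, at a log2 fold change of -0.45 ± 0.13 (edgeR adjusted p = 0.033, and 0.0223 to 0.0832 on leaving out a clone). *ITGB3*, on chromosome 19 (46322645 to 46392503), encodes a partner of the *ITGAV* chain. It was at 180, 181, 185 and 171 CPM in IMF clones and 316, 421, 296 and 597 CPM in SF clones. Each SF clone lay above each IMF clone (log2 fold change -1.18 ± 0.21, edgeR adjusted p = 0.00453), but without SF4 the log2 fold change was -0.94 and *ITGB3* no longer passed. *ITGB5*, another partner of the *ITGAV* chain, was at 105, 106, 102 and 103 CPM in IMF clones and 125, 202, 119 and 94.1 CPM in SF clones. SF4 lay below and the other SF clones above the IMF values, and it did not pass (log2 fold change -0.38 ± 0.21, edgeR adjusted p = 0.224).

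The remaining passing beta chains were scarcer and higher in IMF. *ITGB4*, the hemidesmosome chain that pairs with the *ITGA6* chain, was at 6.48, 8.54, 8.21 and 8.04 CPM in IMF clones and 2.67, 2.55, 3.33 and 2.15 CPM in SF clones. *ITGB8*, a partner of the *ITGAV* chain that takes part in releasing active TGF-beta, was at 11.6, 11.6, 12.8 and 11.7 CPM in IMF clones and 2.31, 4.20, 5.32 and 3.91 CPM in SF clones. Neither gene's groups overlapped. The log2 fold change was 1.54 ± 0.17 for *ITGB4* (edgeR adjusted p = 0.000484) and 1.59 ± 0.22 for *ITGB8* (edgeR adjusted p = 0.00143). Epithelial markers, among which *ITGB4* is usually found, were split: *CDH1* had no counts in any SF clone, *KRT14* also passed as higher in IMF, *ESRP1* and *CLDN4* did not pass, and the summed level of the 4 was 4167 to 6787 CPM in IMF and 2608 to 4869 CPM in SF clones. Their part in the *ITGB4* level was not tested.

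The laminin alpha chains carry the main receptor-binding end of the trimer, and 4 of 5 passed. *LAMA5*, on chromosome 13 (54887604 to 54939286), encodes the alpha chain most widespread in adult basement membranes. It was at 282, 263, 308 and 290 CPM in IMF clones and 78.8, 19.8, 12.8 and 28.1 CPM in SF clones. SF1 was the highest SF clone and still well under the lowest IMF clone, and the IMF mean was 8.19-fold higher (log2 fold change 3.03 ± 0.53, edgeR adjusted p = 0.004, log2 fold change 3.82 without SF1). *LAMA2*, the alpha chain gene of muscle and peripheral nerve basement membranes, was at 34.2, 30.4, 37.1 and 30.2 CPM in IMF clones and 16.1, 3.00, 7.39 and 12.9 CPM in SF clones. The groups did not overlap (log2 fold change 1.74 ± 0.42, edgeR adjusted p = 0.0176), but the adjusted p was 0.0525 when IMF3 or SF3 was left out. *LAMA1*, best known from embryonic basement membranes, had 6, 17, 20 and 19 counts in IMF clones and none in SF clones. Against a floor of 3 counts per clone it was at least 4.49-fold higher in IMF (edgeR adjusted p = 0.009), at a level below 1 CPM in every clone. It did not pass with the clone number as a block (edgeR adjusted p = 0.101) and was not tested under a filter of 10 counts in 4 clones.

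*LAMA3* and *LAMA4* did not follow the other alpha chains. *LAMA3*, on chromosome 24 (32710676 to 32971190), encodes the alpha chain of epithelial laminins. It was at 11.7, 13.0, 14.6 and 11.7 CPM in IMF clones and 59.3, 64.9, 32.4 and 32.4 CPM in SF clones. All SF clones were above all IMF clones, SF1 and SF2 the most, with the SF mean 3.71-fold higher (log2 fold change -1.89 ± 0.25, edgeR adjusted p = 0.00108). *LAMA4*, the alpha chain gene typical of vessels, fat and other mesenchymal tissue, was at 224, 213, 222 and 231 CPM in IMF clones and 330, 151, 224 and 319 CPM in SF clones. The SF values lay on both sides of the IMF range (log2 fold change -0.20 ± 0.23, edgeR adjusted p = 0.567). Per length, *LAMA4* was the leading alpha chain in every clone, but it supplied 50.5 to 53.5% of the laminin alpha RPKM in IMF clones and 73.9 to 87.5% in SF clones. *LAMA5* supplied 39.1 to 41.4% in IMF clones and 2.95 to 11.0% in SF clones, and the summed laminin alpha RPKM was 57.9 to 64.1 in IMF and 29.6 to 61.7 in SF clones.

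**Figure D2:**
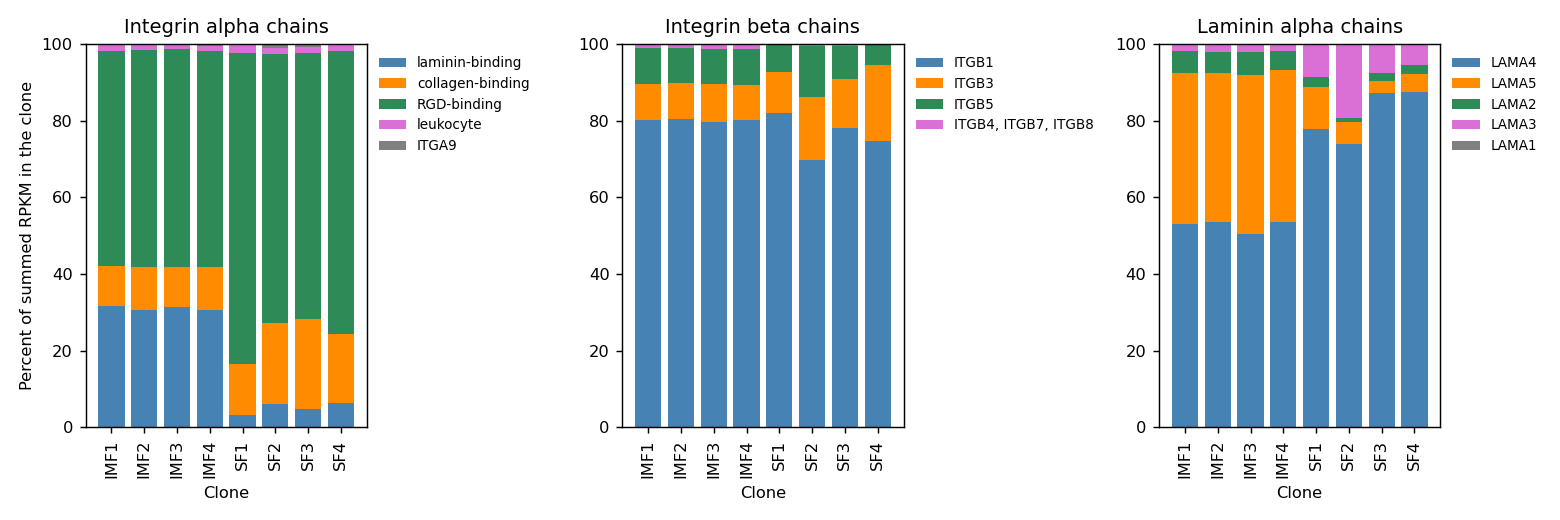
Share of each class or gene in the summed RPKM of the integrin alpha, integrin beta and laminin alpha chains, 1 bar per clone. Laminin-binding alpha chains took 30.5 to 31.6% in IMF clones and 3.09 to 6.42% in SF clones, and LAMA5 gave way to LAMA4 and LAMA3 in SF clones.

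The laminin beta and gamma chains, which join the alpha chain to make the trimer, changed less. *LAMB1* was at 294, 298, 286 and 291 CPM in IMF clones and 903, 423, 361 and 523 CPM in SF clones. SF1 stood highest and all SF clones exceeded the IMF clones (log2 fold change -0.92 ± 0.26, edgeR adjusted p = 0.034, and 0.0120 to 0.0816 on leaving out a clone), and the log2 fold change was -1.03 without SF2 and -1.11 without SF3, both of which passed. *LAMB2*, the beta chain gene of muscle and kidney basement membranes, was at 297, 310, 312 and 307 CPM in IMF clones and 282, 329, 286 and 308 CPM in SF clones. The groups overlapped fully (log2 fold change 0.02 ± 0.08, edgeR adjusted p = 0.862), and the sign was not stable across processing settings. *LAMC1*, the gamma chain gene of most trimers, was at 404, 411, 421 and 427 CPM in IMF clones and 304, 169, 157 and 246 CPM in SF clones. All IMF clones exceeded all SF clones (log2 fold change 0.92 ± 0.20, edgeR adjusted p = 0.0118), and the log2 fold change rose to 1.12 without SF1 and to 1.08 when libraries were scaled by total counts alone, both of which passed.

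The nidogens did not pass, and SF1 was the highest clone for both. *NID1* was at 335, 331, 329 and 336 CPM in IMF clones and 767, 550, 323 and 472 CPM in SF clones. SF3 fell just under the IMF range and the other SF clones were above it (log2 fold change -0.67 ± 0.23, edgeR adjusted p = 0.0644). *NID2* was at 614, 601, 600 and 603 CPM in IMF clones and 808, 235, 250 and 351 CPM in SF clones. SF1 was above the IMF range and the other SF clones below it (log2 fold change 0.56 ± 0.37, edgeR adjusted p = 0.319). Without SF1, *NID2* passed with a log2 fold change of 1.12 (edgeR adjusted p = 0.00138). An uncharacterised protein-coding gene overlaps *NID2* in the RefSeq list.

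The other 10 genes, among them *ITGA2B*, *ITGA9*, *ITGA10*, *ITGAD*, *ITGAE*, *ITGAM*, *ITGAX*, *ITGB7* and *LAMB3*, did not pass and had group means of 0.245 to 16.5 CPM. Their log2 fold changes ran from -1.82 to 0.65 and their edgeR adjusted p from 0.0692 to 0.846. The largest in size was that of *ITGAX*, which encodes the leukocyte alpha chain CD11c, whose groups did not overlap: 2.59, 0.196, 1.72 and 0.857 CPM in IMF clones and 6.47, 4.15, 2.80 and 5.46 CPM in SF clones. It passed by DESeq2 (adjusted p = 0.0213), by limma-voom (adjusted p = 0.0332) and without IMF1 (edgeR adjusted p = 0.0424). *ITGAM* and *ITGAD* are similar leukocyte genes 68.9 kb apart on chromosome 25, and all 8 counts of *ITGAD* were even, as for 9.96% of the named genes, so its level is uncertain. *ITGA4*, *ITGB2*, *ITGB6*, *LAMB4* and *LAMC3* were not analysed here, so the beta chain partner of *ITGAL*, *ITGAM*, *ITGAX* and *ITGAD* has no value.

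**Figure D3:**
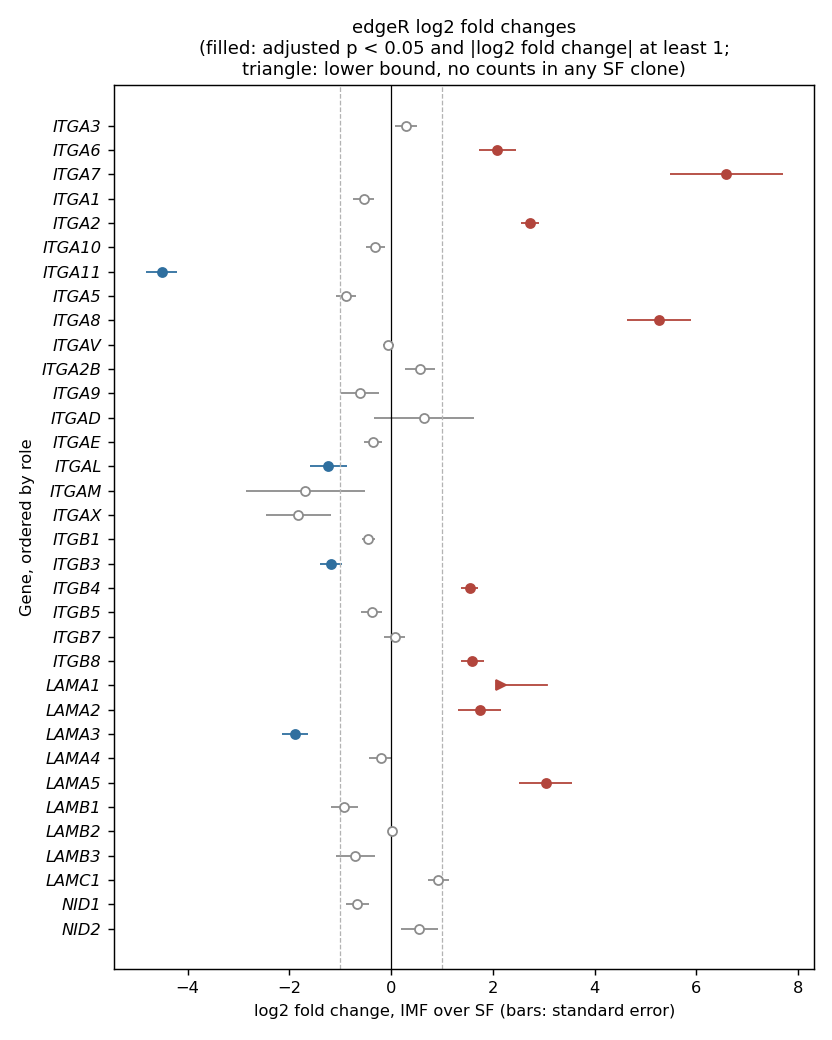
log2 fold change of IMF over SF for each gene shown, with bars of 1 standard error (n = 4 clones per group), filled where both thresholds were passed and open otherwise. The triangle for LAMA1 is a lower bound on the fold, since no SF clone had counts, and the dashed lines mark the fold threshold.

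Set side by side as receptors and ligands, the laminin side and the collagen side of the system were weighted differently. The laminin-binding alpha chains held 30.5 to 31.6% of all integrin alpha RPKM in IMF clones and 3.09 to 6.42% in SF clones, while the collagen-binding chains held 10.4 to 11.4% and 13.3 to 23.5% and the Arg-Gly-Asp-binding chains 56.3 to 56.7% and 69.5 to 81.3%. The ranges of the depots did not overlap for any of these classes. The summed alpha RPKM was 246 to 256 in IMF and 248 to 392 in SF clones. For the muscle pair of laminin and receptor, *LAMA2* and *ITGA7* were both higher in every IMF clone than in every SF clone. Within SF the members of the pair did not rank alike: SF1 had the highest *LAMA2* level and the lowest *ITGA7* level of the 4. The ratio of *ITGA7* to its partner *ITGB1* was 0.245 to 0.273 in IMF clones and at most 0.00565 in SF clones. The ratio of *ITGA11* to *ITGB1* ran the other way, at 0.00338 to 0.00546 in IMF clones and 0.0372 to 0.117 in SF clones.

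The epithelial laminin and its receptor did not move together. *ITGA6* and *ITGB4*, the chains of the hemidesmosome integrin, were both higher in IMF, whereas the ligand gene *LAMA3* was higher in SF. The beta chain gene of that laminin, *LAMB3*, averaged 0.230 RPKM in IMF and 0.374 RPKM in SF clones, below *LAMA3* at 1.12 RPKM in IMF and 4.17 RPKM in SF. For the vitronectin receptor, the RPKM ratio of *ITGB3* to *ITGAV* was 1.03 to 1.10 in IMF clones and 1.53 to 3.50 in SF clones. Within the basement membrane ligands, the ratio of *LAMA5* to *LAMA4* was 0.730 to 0.820 in IMF clones and 0.0338 to 0.141 in SF clones. The ratio of *LAMC1* to the sum of *LAMB1* and *LAMB2* was 0.501 to 0.528 and 0.167 to 0.219, and that of *NID2* to *NID1* was 2.25 to 2.30 and 0.535 to 1.32, in the same order. These 4 ratios did not overlap between depots, but others did: the ratio of *ITGA6* to *ITGB4* was 1.32 to 1.62 in IMF clones and 0.473 to 1.42 in SF clones, and that of summed integrin alpha to summed integrin beta RPKM was 0.870 to 0.937 and 0.666 to 0.891. All are given as descriptions with no test.

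**Figure D4:**
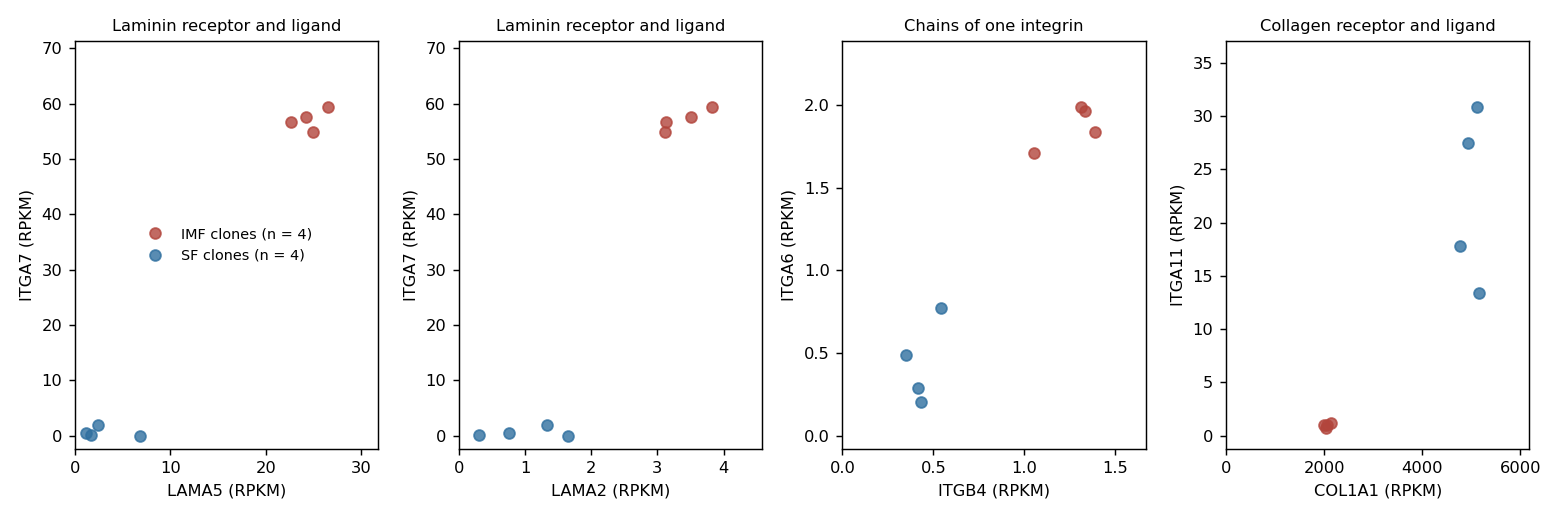
RPKM of receptor against ligand, or of 2 chains of 1 integrin, in each clone (red, IMF; blue, SF; n = 4 each). IMF clones lie at the upper right for ITGA7 with LAMA5, ITGA7 with LAMA2 and ITGA6 with ITGB4, and SF clones lie at the upper right for ITGA11 with COL1A1.

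The spread between clones also differed by depot. Among the 14 genes at a mean of 20 CPM or more in both groups, a limit set after the data were seen, the median coefficient of variation (CV) was 2.48% over the IMF clones and 33.7% over the SF clones, where counting error alone would give 1.21% and 1.20%. The CV was larger in SF for each of the 14. For the 5958 genes of the whole table at that level in both groups, the medians were 5.42% and 12.0%, and 78.3% had the larger CV in SF, as had 64.6% of all genes tested. Of the 14, 13 had a CV under 5% in IMF clones and none had in SF clones. SF1 was the highest SF clone for 6 of the 7 laminin and nidogen genes among them, and SF4 for 4 of the 7 integrin genes. The cause of the closeness of the IMF libraries was not tested. Each pair of libraries of a depot differed by more than sampling noise (lowest chi-square per degree of freedom 44.1), so none was treated as a library deposited in duplicate. That does not show that the IMF clones had separate sources, and if they did not, the n of 4 would be too large.

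**Figure D5:**
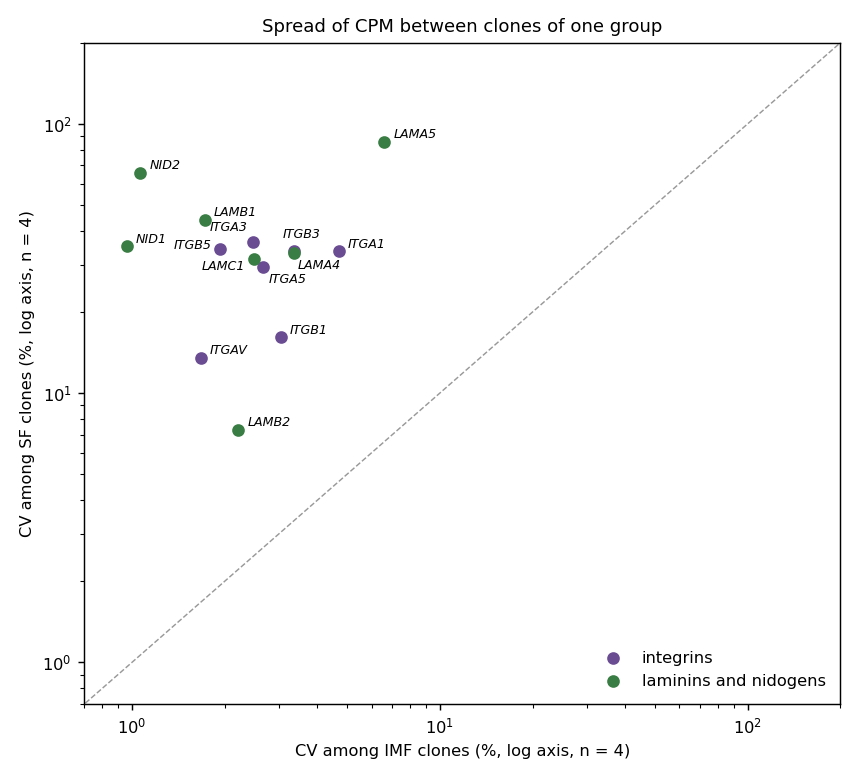
CV of CPM among the 4 SF clones against that among the 4 IMF clones, in percent on log axes, for the 14 genes at 20 CPM or more in both groups. Each gene lies above the dashed line of equal CV, with LAMA5 highest in SF and LAMB2 lowest.

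Genes that work with these receptors and ligands were described from 4 lists. Of 37 integrin activators and adhesion adaptors tested, 1 passed as higher and 5 as lower in IMF, next to 4.78% and 4.04% of all genes, with a median log2 fold change of -0.21 beside -0.03 over all genes. The actin crosslinker *ACTN1* was lower in IMF (means of 480 CPM over IMF and 1247 CPM over SF clones, log2 fold change -1.38), as were *APBB1IP* (-1.13), *FERMT3* (-1.05) and *PTK2B* (-1.43). The parvin gene *PARVB*, whose product sits in the integrin-linked kinase complex, was the member that was higher, with means of 18.0 CPM (IMF) and 0.582 CPM (SF) and a log2 fold change of 4.95, and was named after its values were seen.

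Of 19 other basement membrane genes tested, 3 passed as higher and 2 as lower in IMF (26.3% in all, next to 8.82% of all genes), with a median log2 fold change of -0.11. *NTN4*, a netrin that binds laminin networks, averaged 124 CPM over IMF clones and 37.9 CPM over SF clones, a log2 fold change of 1.71. *FRAS1* and *COL4A4* had 2 counts or fewer in each SF clone and 65 or more in each IMF clone. The fibulins *FBLN2* (-1.35) and *FBLN1* (-2.25) were lower in IMF. The main type IV collagen gene *COL4A1* did not pass, with means of 1028 CPM (IMF) and 1500 CPM (SF) (log2 fold change -0.55, edgeR adjusted p = 0.759).

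Of 17 laminin receptors other than integrins and their modifying enzymes, 1 passed as higher and 1 as lower in IMF, a share of 11.8% that was near the 8.82% of all genes, with a median log2 fold change of -0.40. All SF clones lay above all IMF clones for 9 of the 17 (background 14.1%), and all IMF clones above all SF clones for 3 (background 18.0%). *SGCA*, a sarcoglycan of the muscle membrane, was higher in IMF (means of 3.84 CPM over IMF and 0.743 CPM over SF clones, log2 fold change 2.34). Dystroglycan itself, *DAG1*, did not pass, with means of 239 CPM over IMF clones and 185 CPM over SF clones (log2 fold change 0.37, edgeR adjusted p = 0.0582).

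Of 22 integrin ligands other than laminins, 2 passed as higher and 7 as lower in IMF (40.9% in all, next to 8.82% of all genes), with a median log2 fold change of -0.72. The most abundant that passed were matrix genes lower in IMF: *COL1A1* (log2 fold change -1.28), *TNC* (-1.31), *COL6A1* (-1.52), *POSTN* (-4.16) and *TNXB* (-2.07). Of these, *POSTN* was not uniform, at 11.0, 14.0, 13.6 and 8.52 CPM in IMF clones and 6.52, 297, 118 and 422 CPM in SF clones, so SF1 lay below every IMF clone. The 2 that were higher were *EDIL3* and *CDH1*, named after their values were seen. *FN1* and *VTN*, the genes of the classic ligands of *ITGA5* and *ITGAV*, were not analysed here.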

How the data were processed

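Raw counts per gene were deposited for 8 clones. Per the labels, the authors used Trimmomatic 0.39, STAR 2.7.11a, featureCounts 2.0.2 and DESeq2 1.42.0; the paper names HISAT2 as aligner, ARS-UCD2.0 as genome and a non-stranded kit, whereas the labels describe dUTP second strands, so antisense overlaps cannot be resolved. Deposited group means and the authors' comparison columns were not used. The deposited gene length, in bases, served for RPKM only. The row without a gene name (0.0148 to 0.0209% of counts) was left out, as were the 532 genes under 20 counts in total. The 35 genes and all lists were chosen with earlier results of these data known. Genes given by clone were those past both thresholds or at 20 CPM or more in a group, and list members were the 5 most abundant that passed; 3 genes that these rules select are not reported here by name.

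Counts were fitted for all 18339 genes with edgeR 4.0.16 (glmQLFit, glmQLFTest, two-sided, trimmed mean of M-values, factors 0.863 to 1.09) in R 4.3.3. Adjusted p values were taken over all genes tested. Standard errors are the log2 fold change divided by the square root of F. Alternatives were DESeq2 1.42.0, limma-voom 3.58.1, glmTreat, other scalings and filters, a replicate block and leaving out each clone. In data simulated for this comparison over 18339 genes, 141 of 200 genes changed by a log2 fold of 2 were recovered (70.5%), with 4 false calls. The simulation gave a gene the same dispersion in both groups, so these figures do not cover the unequal spread of the IMF and SF clones. A count of 0 was read against a floor of 3 counts (0.0981 to 0.165 CPM), which covers counting error only. Coordinates came from a RefSeq gene table (ARS-UCD2.0) that held 34 of the 35 genes, not *ITGAX*.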

Additional observations from a re-analysis of the deposited data

Results flagged for a closer look

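In 3 cases 1 clone lay far from the other 3 of its group, with a gap to its nearest neighbour that took most of the group's range. For *ITGA2*, SF3 at 2.07 CPM lay above SF1, SF2 and SF4 at 1.39 to 1.43 CPM (gap 0.918 of the range). For *ITGB8*, IMF3 at 12.8 CPM lay above the other IMF clones at 11.6 to 11.7 CPM (gap 0.931 of the range). For *LAMB3*, SF2 at 3.90 CPM lay above the other SF clones at 1.49 to 1.69 CPM (gap 0.868 of the range). Chance gives such a gap in about 1 of 20 groups, or 3.5 of the 70 groups examined here, so the number found is near that. *ITGA2* and *ITGB8* passed without the clone in question.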

How the results depend on the processing

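The count of 9 genes higher and 4 lower in IMF was 9 and 5 by DESeq2 and by limma-voom, 10 and 4 with total counts alone, and 6 and 2 by glmTreat against a log2 fold change of 1. Leaving out a clone gave 8 to 11 higher and 2 to 6 lower, the 2 without SF4. Over all genes glmTreat called 631 where the test in use called 1618, since it tests against the fold itself, and scaling by total counts alone shifted the all-gene median (log2) to 0.12. Of 593 values for single genes under 17 alternatives, 558 kept their direction and side of the thresholds, 15 no longer passed, 10 newly passed and 10 changed sign, none of which passed at either setting. By glmTreat *ITGA6*, *ITGAL*, *ITGB3*, *ITGB8* and *LAMA2* no longer passed. The log2 fold change of *LAMB2* was -0.0074 without a filter, -0.0040 with at least 10 counts in 4 clones, and from -0.031 to 0.070 on leaving out a clone, below 0 without IMF2, IMF3, SF1 or SF3. That of *ITGAV* was 0.10 with total counts alone and from -0.15 to 0.036 on leaving out a clone (above 0 without SF1), that of *ITGAD* was -0.18 by limma-voom, and that of *ITGB7* ran from -0.018 to 0.17 on leaving out a clone (below 0 without IMF3). The cause of these changes was not tested.

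With the clone number as a replicate block, 8 genes were higher and 4 lower, *LAMA1* being lost (edgeR adjusted p = 0.101), and 1489 of all genes passed, 1356 of them shared with the fit without the block. The numbers were not taken to pair the clones: same-numbered clones correlated at -0.0093 to 0.139 (mean 0.055, others -0.018), and 4 of 8 correlated best with their own number. With at least 10 counts in 4 clones, 8 were higher and 4 lower, since *LAMA1* was not tested. Depth limits *LAMA1*, *ITGA8*, *ITGAD* and *ITGAM*, which had clones at 0 counts.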
